A study of Mus musculus with 4 samples.

Results

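Of the 12393 genes measured, 10 genes of the Notch pathway are described here: the receptors Notch1, Notch2 and Notch3, the ligands Jag1, Jag2, Dll1 and Dll4, the DNA-binding effector Rbpj, the target Hes1 and the inhibitor Numb. They were taken by name, as a list of receptors, ligands and targets, with earlier results of these data known. Dll1 and Hes1 had 1 probe set on the array and the other members had more, which made 18 probe sets in all. The brightest probe set, by mean over the arrays, stands for its gene, and the second probe set is given beside it. The arrays held RNA from the mouse small intestine: 2 from Lgr5(hi) stem cells of wild-type C57BL/6 mice, sorted by flow cytometry, and 2 from villus cells, released with EDTA, of C57BL/6 mice whose intestinal epithelium had lost Atoh1. The mice were 4 to 6 weeks old, the tissue was proximal intestinal epithelium, and the same tamoxifen course, 1 mg per day for 5 days and then 5 days of waiting, stands in the labels of all 4 samples, wild type included. Neither the promoter driving the tamoxifen-dependent Cre nor the number of animals per sample was given in the sources used here. Samples are labelled as biological replicates; if they share animals, the p-values measure only the spread between these samples.

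Notch signalling passes between touching cells. A ligand of the Delta-like or Jagged family on 1 cell binds a Notch receptor on its neighbour, proteases release the receptor's intracellular part, and this part joins Rbpj on DNA and switches on genes such as Hes1. In intestinal crypts the pathway keeps stem cells and progenitors from becoming secretory cells, because Hes1 represses Atoh1, the factor that secretory cells need. Secretory cells and Paneth cells are known to present Dll1 and Dll4 to the stem cells.

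Cell type, genotype and isolation changed together between the groups, so the difference attached to each gene below is a difference in all of these at once and they cannot be told apart. Less RNA per cell and fewer cells of a type cannot be told apart either. The sort gene Lgr5 read 2572 and 1990 (normalized intensity) in the stem arrays against 121 and 68.1 in the villus arrays, and Atoh1 read 173 and 209 against 33.4 and 38.7. Lgr5 was the gene sorted on, and for Atoh1 cell type and genotype cannot be told apart, so its reading does not test the deletion. Whether the Atoh1 probe set lies in the deleted part was not stated. Of 9 enterocyte markers 9 were higher in the villus arrays. The stem arrays were bright for secretory cells too: the summed intensity of 6 goblet cell markers was 35797 to 41923 there and 590.0 to 1139 in the villus arrays, and that of 6 Paneth cell markers was 30849 to 41588 against 453 to 3025. Lymphocyte markers went the other way, with 10 of 11 higher in the villus arrays. Control probe sets also separated the groups. The 3′ control set exceeded the 5′ set by 1.70 and 1.92 (log2) for Gapdh and by 2.06 and 2.10 for Actb in the stem arrays, against 0.15 and 0.17, and 0.56 and 0.50, in the villus arrays. A gap between these sets is a usual sign of how complete the labelled RNA was, and its part in the differences below was not tested. The 6 bioB control sets, which read an added bacterial transcript, were lower in the villus arrays, by -2.55 to -1.90 (log2, villus minus stem). These shifts are of the size of the larger differences below. Their part was not tested either, and no scale based on them was tried.

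Notch1, Notch2, Dll1, Rbpj and Hes1 were lower in the villus cells, Numb was higher, and Notch3, Jag1, Jag2 and Dll4 did not pass the test. By limma, with p-values adjusted over all 12393 genes and a threshold of 0.05, 5 of the 10 genes were called lower, where 22.4% of all genes were, and 1 was called higher, where 18.2% of all genes were. The median difference of the 10 genes, villus minus stem, was -0.56 on the log2 scale, against -0.0026 over all genes. Of the 18 probe sets 6 were lower and 2 higher in a fit over every probe set, beside 19.6% lower and 17.8% higher among all 20380 probe sets. These calls rest on all 4 arrays. Without stem replicate 1, or without stem replicate 2, limma called no gene of the whole table. Without villus replicate 1, Notch1, Dll1 and Rbpj were still lower (adjusted p from limma 0.0478, 0.0427 and 0.0492), and without villus replicate 2 these were Dll1 and Rbpj (0.0454 and 0.0487). The 5 lower genes and Numb kept their direction with each of the 4 arrays left out. Since their groups did not overlap, this had to be so and adds no evidence.

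**Figure D1:**
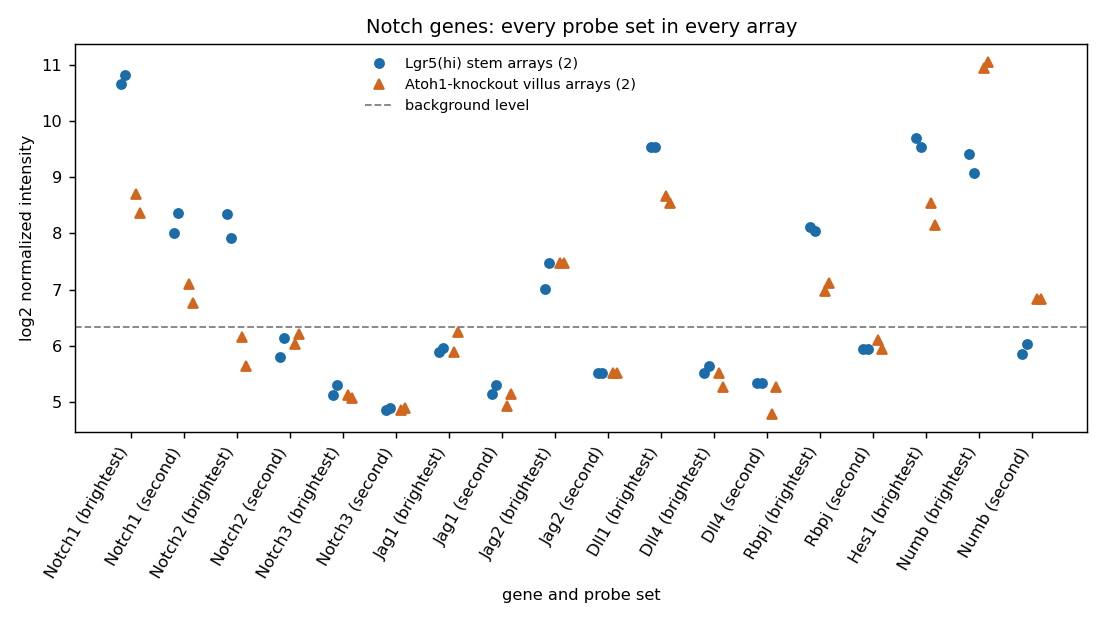
Log2 normalized intensity (vertical axis) of all 18 probe sets of the 10 genes (horizontal axis) in each of the 2 stem arrays (circles) and 2 villus arrays (triangles); the dashed line is the background level of 6.34. Both probe sets of Notch1 stand lower and both of Numb higher in the villus arrays, while the points of Notch3, Dll4 and Jag1 lie under the dashed line in both groups.

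A background level was taken as the 90th percentile of the means of 26 genes known from eye, muscle, brain and further organs: log2 6.34, an intensity of 81.1. Within that list 2 genes fell past the threshold, and Mbp averaged 9.31. A group below this level has only a bound, so a fold against it carries "at least". For that bound the bright group keeps its measured mean, and any array of the dim group under the background level is raised to it.

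The receptors come first. Notch1, the main receptor of the crypt base together with Notch2, read 1620.1 and 1817 in the stem arrays against 415 and 331 in the villus arrays. The groups did not overlap, and the lower stem value was several times the higher villus value. The difference was -2.21 ± 0.15 (log2, with limma's SE and 2 arrays in each group; adjusted p = 0.00494), or 4.63-fold lower. Only 2.69% of all genes had a lower difference. The second Notch1 probe set was dimmer, at 258 and 329 against 138 and 108. It was also lower, by less: -1.26 ± 0.20 (adjusted p = 0.0252 by limma over every probe set), 2.39-fold.

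Notch2 gave a like value on its brighter probe set and a different one on its dimmer set. The brighter set read 325 and 241 in the stem arrays against 71.2 and 49.8 in the villus arrays, where both arrays were below the background level. It was at least 3.45-fold lower (measured difference -2.23 ± 0.27, adjusted p = 0.012 by limma). On the second set the values were 56.0 and 70.1 against 65.5 and 73.9. Here the groups overlapped and both lay below background, so this set gives no fold for Notch2; its measured difference was 0.15 ± 0.15 and was -0.54 after centring on reference genes. Notch3, known mainly from vascular smooth muscle and pericytes, was below background in all 4 arrays on both probe sets. Its values were 35.1 and 39.5 against 35.1 and 33.6, and 29.0 and 29.9 against 29.0 and 29.7, with overlapping groups. The other receptor, Notch4, known from endothelium, read 92.8 and 77.8 in the stem arrays against 45.8 and 39.6 in the villus arrays. Notch4 fell past the threshold and was at least 1.05-fold lower, though its stem value of 77.8 was also under the background level of 81.1. The second Notch4 set, below background in both groups, read 18.5 and 21.9 against 20.4 and 20.4 and did not pass (0.02 ± 0.11).

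Lymphocytes also express Notch1 and Notch2. Their markers rose where these receptors fell: the summed intensity of the 11 measured markers was 654 to 911 in the stem arrays and 8747 to 11813 in the villus arrays. Their part in the receptor values was not tested. Of 10 markers of endothelium 8 were below background in both groups, Pecam1, Cdh5 and Kdr among them. The other two passed the test: Esam, an adhesion molecule of endothelium, went from 240.3 and 192 to 80.6 and 80.1 and was at least 2.65-fold lower, and Eng was at least 1.04-fold higher (measured difference 0.47 ± 0.09). The sum of the 10 markers was 489 to 532 in the stem arrays and 382 to 393 in the villus arrays. Of 11 pericyte and mesenchyme markers 7 were below background in both groups, with sums of 579 to 675 and 532 to 590. The marker of that list that passed was Vim, a filament protein of mesenchyme, which went from 147 and 218 to 36.7 and 37.8 and was at least 2.20-fold lower. The part of these cells in the receptor values was not tested.

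Among the ligands, Dll1 alone passed the test. Dll1, the Delta-like ligand of early secretory cells, read 744 and 745 in the stem arrays against 407 and 371 in the villus arrays, with no overlap. It fell 1.91-fold (-0.94 ± 0.07, adjusted p = 0.00586 by limma). Secretory markers moved the same way. Of 5 markers of secretory progenitors 4 fell, with Neurog3, the factor that starts the endocrine lineage, going from 742 and 717 to 40.1 and 29.5, and the list's sum from 7021 to 7350 down to 1388 to 1502. Goblet cell markers fell in 6 of 6 cases, Paneth cell markers in 4 of 6 and enteroendocrine markers in 5 of 8, while 3 of 3 measured tuft cell markers rose. Goblet, Paneth and enteroendocrine cells depend on Atoh1, which the villus samples lack, so for Dll1 cell type and genotype cannot be told apart. The part of secretory cells in its fall was not tested.

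Dll4, the other Delta-like ligand of the crypt, was below background on both probe sets. The brighter set read 45.9 and 50.1 in the stem arrays against 45.9 and 38.6 in the villus arrays (-0.19 ± 0.12), and the second set 40.4 and 40.4 against 27.5 and 38.3 (-0.31 ± 0.20). Jag1, a ligand with roles in epithelium and vessels, was below background on both sets as well, at 59.2 and 62.6 against 59.2 and 76.3, and 35.4 and 39.5 against 30.3 and 35.4. Its brighter set gave 0.14 ± 0.16 and the second -0.19 ± 0.12, so the sets differed in sign. Jag2, the second Jagged ligand, was above background on its brighter set only, where 1 stem array read 128 and the other 3 arrays all read 178 (0.23 ± 0.19, adjusted p = 0.416 by limma). Its second set read 45.9 on all 4 arrays. Without stem replicate 1 the brighter Jag2 set gave no difference, since the remaining 3 values are equal. In the deposited table such ties are common: 10 of the 18 member probe sets (55.6%) held at least 1 pair of equal values, against 30.4% of all probe sets. A value equal between a stem and a villus array was found in 8 of the 18 (44.4%), against 23.3% of all probe sets. For these dim ligands a difference was not detectable on these arrays, which is not to say that there was none.

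Rbpj, which carries the receptor's signal to DNA, fell on its brighter probe set. It read 276 and 264 in the stem arrays against 125 and 139 in the villus arrays, again without overlap. The difference was -1.03 ± 0.08 (adjusted p = 0.006 by limma), 2.05-fold. The second Rbpj set read 61.8 in both stem arrays and 68.6 and 61.8 in the villus arrays, all below background, with a measured difference of 0.08 ± 0.08.

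Hes1, the repressor that Notch switches on in crypt cells, read 835 and 742 in the stem arrays against 374 and 284 in the villus arrays. All villus values were lower than all stem values, and both villus arrays still stood well above the background level of 81.1. It fell 2.42-fold (-1.27 ± 0.18, adjusted p = 0.0163 by limma). Hes1 lost its call when any of the 4 arrays was left out, with adjusted p from 0.0613 to 0.155. Of the other genes that Notch is known to induce, Nrarp, a feedback inhibitor that binds the Notch complex, went from 795 and 660 to 380 and 318 (-1.06 ± 0.15). The second Nrarp set, also above background, read 116 and 153 against 105 and 96.3 and did not pass (-0.41 ± 0.18, adjusted p = 0.186 by limma over every probe set). Hes5, a further Hes repressor that Notch induces, did not pass either, at 90.4 and 108 against 82.7 and 86.6 (-0.23 ± 0.12, adjusted p = 0.245 by limma). Hey1, a relative of the Hes repressors, went from 107 and 114 to 63.5 and 68.6 and was at least 1.36-fold lower.

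Numb, a membrane adaptor that antagonizes Notch by sending the receptor into endosomes, was the member that rose. Its brighter probe set read 678 and 539 in the stem arrays against 1965 and 2131 in the villus arrays. The lower villus value was far above the higher stem value. The rise was 3.39-fold (1.76 ± 0.15, adjusted p = 0.00651 by limma), and 94.4% of all genes had a lower difference. The second set read 57.9 and 65.5 in the stem arrays, below background, and 115 in both villus arrays. It was at least 1.41-fold higher (measured difference 0.90 ± 0.09, adjusted p = 0.0096 by limma over every probe set). Its relative Numbl was below background in both groups.

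**Figure D2:**
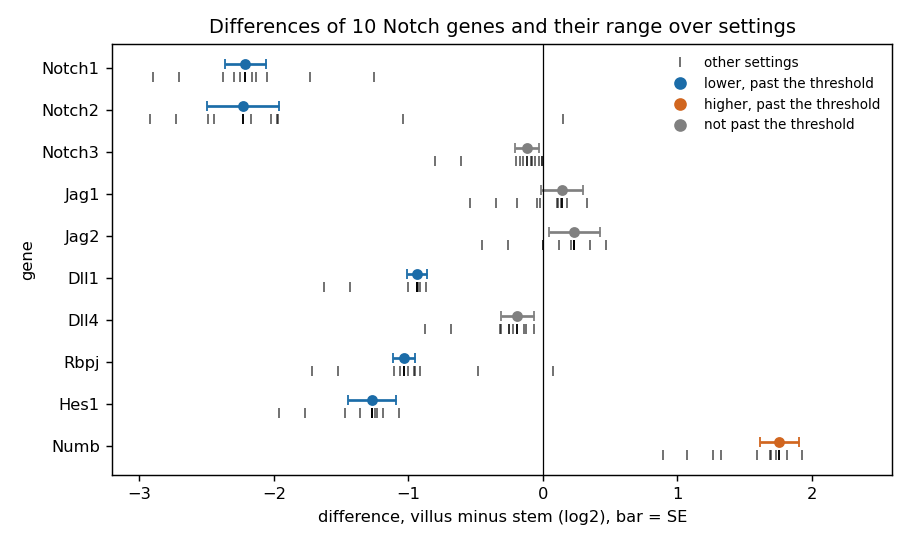
Difference between villus and stem arrays (horizontal axis, log2, bars are limma's SE, n = 2 arrays per group) for each of the 10 genes (vertical axis), with short ticks for the same difference under every other setting. Notch1, Hes1, Dll1 and Numb keep their side of 0 in all settings, whereas Notch2 and Rbpj each have a tick above 0, at 0.15 and 0.075, from their dimmer probe sets.

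Counts of calls depend on the scale. The arrays were compared as deposited, where the median difference over all genes was -0.0026. With arrays aligned on the median of 8 reference genes, the middle difference over the whole table went to -0.69 and that turned the split of calls over all genes from 2257 higher and 2779 lower to 1276 higher and 9233 lower. Relative to that scale Notch1, Notch2, Dll1, Rbpj and Hes1 were lower and Numb higher as before, and Notch3, Dll4 and Jag1 also passed as lower (-0.80, -0.88 and -0.54). The second Numb set no longer passed there (0.21). Of the 8 reference genes 4 rose and 1 fell past the threshold as deposited, so they are no stable base.

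**Figure D3:**
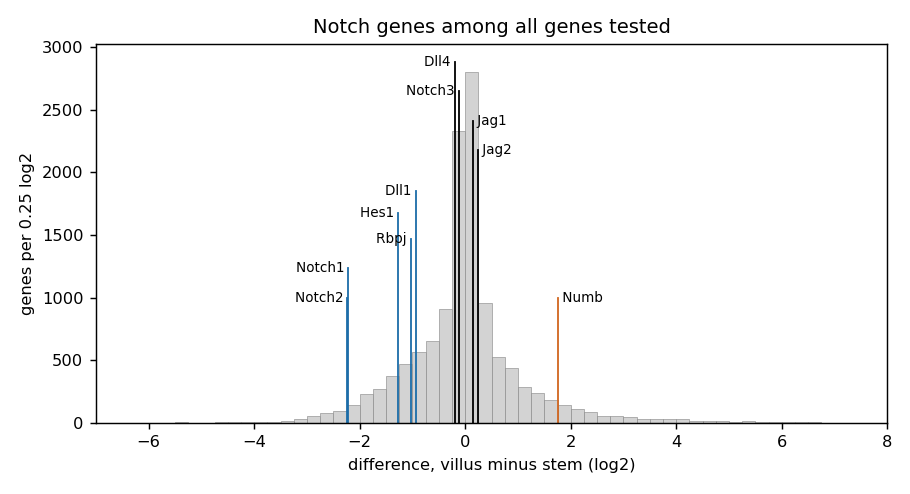
Number of genes (vertical axis) by difference between villus and stem arrays (horizontal axis, log2, bins of 0.25) for all 12393 genes, with a line for each of the 10 Notch genes; line heights carry no value. Notch2 and Notch1 lie in the lower tail at -2.23 and -2.21, Numb in the upper tail at 1.76, and Dll4, Notch3, Jag1 and Jag2 in the central peak.

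The rest of the pathway was called about as often as genes at large. From a list of 65 further genes of the pathway 56 were measured: 10 rose, 14 fell and 32 did not pass, with a median of -0.18. These are 17.9% higher and 25% lower, beside 18.2% and 22.4% of all genes. After centring on the reference genes 3 rose and 45 fell, and the 45 are 80.4% of the list, beside 74.5% of all genes. Of the 24 called genes 8 had a further probe set above background in at least 1 group. In 4 of these each such set was called the same way, and in the other 4 (Hes6, Kat2a, Nrarp and Snw1) 1 such set did not pass. The lists that follow hold 5 to 10 measured genes each. Their counts stand beside the same 18.2% higher and 22.4% lower among all genes. In the proteases that cut the receptor or ready it, 3 of 7 rose and 1 fell. Furin, which cuts Notch on its way to the surface, went from 189 and 186 to 387 and 327 (0.93 ± 0.11, adjusted p = 0.0115 by limma). Ncstn and Psenen, subunits of gamma-secretase, rose by 0.60 ± 0.08 and 0.57 ± 0.13, and the catalytic subunit gene Psen2 fell by 0.77 (SE 0.12) on its brighter set. The second Psen2 set, below background in both groups, was called higher (0.26 ± 0.06, adjusted p = 0.0484 by limma over every probe set). Psenen no longer passed in the fit over every probe set (adjusted p = 0.0503 by limma). Adam10, the sheddase that makes the ligand-dependent cut, differed between its 3 probe sets. The brightest read 2394 and 2076 against 2453 and 3111 and did not pass. Another went from 79.2 and 67.5, below background, to 377 and 515, at least 5.44-fold higher (adjusted p = 0.00734 by limma over every probe set). The dimmest went from 71.1 and 59.2 to 97.4 and 92.1, at least 1.17-fold higher (adjusted p = 0.0488).

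Genes that modify the receptor or handle the ligand held 2 calls, both lower, where 22.4% of all genes were called lower. Of 5 glycosyltransferases, which set how receptors respond to ligands, 1 fell: Poglut1, from 279 and 222 to 121 and 114 (-1.08 ± 0.14). Lfng, a Fringe enzyme, was at 94.6 in both stem arrays and 82.7 and 49.0 in the villus arrays, which did not pass. Among 5 genes of ligand endocytosis the ubiquitin ligase gene Mib2 fell by 0.38 (SE 0.05), while Mib1 read 83.2 in both stem arrays and 77.1 and 85.4 in the villus arrays.

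Coactivators of Rbpj ranged from -3.15 to 1.18, with 2 of 6 lower and 1 higher. Kat2a and Kat2b, histone acetyltransferases that are close relatives and can serve the Notch complex as coactivators, went in opposite directions. Kat2a fell from 1004 and 1119 to 132 and 108 (-3.15 ± 0.14, adjusted p = 0.0032 by limma) on its brightest set, whereas Kat2b rose from 639 and 550.0 to 1213 and 1487 (1.18 ± 0.15, adjusted p = 0.0137). The Kat2a sets differed: another fell from 157 and 151 to 40.1 and 47.3, at least 1.90-fold, and the last, above background, read 137 in both stem arrays and 142 and 127 in the villus arrays (-0.03 ± 0.08, adjusted p = 0.809 by limma over every probe set). Snw1, a coactivator that also serves splicing, fell by 1.13 (SE 0.09) on its brighter set, and its second set, at 504 and 760.3 against 422 and 434, did not pass. Maml1, the Mastermind scaffold of the complex, read 269 and 269 against 270.1 and 269 and did not pass. Among 10 corepressors, which hold Rbpj targets silent, 2 rose and 3 fell. Hdac2 and Spen fell by 1.82 (SE 0.10) and 1.45 (SE 0.07), and Tle1, a Groucho protein that Hes factors recruit, rose from 702 and 800 to 1767 and 1610.2 (1.17 ± 0.10).

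Genes of receptor turnover and the remaining Hes and Hey genes split as well. Of 9 turnover genes and modulators 3 rose and 2 fell. Dtx1, of the Deltex family, went from 47.9 and 60.6, below background, to 133 and 129, at least 1.62-fold higher. Aak1, a kinase that acts on Numb and endocytosis, rose by 0.62 ± 0.09, and the ubiquitin ligase gene Nedd4 fell by 1.76 (SE 0.31), with stem values of 2479 and 4170 that were far apart; both further Nedd4 sets were lower too. Of 9 further targets 3 fell and 1 rose. Hes6, which is an antagonist of Hes1 rather than a plain target, fell from 1473 and 1310 to 746 and 717 (-0.93 ± 0.09) on its brighter set. Its second set, also above background, read 354 in both stem arrays and 373 and 347 in the villus arrays and did not pass (0.03 ± 0.06, adjusted p = 0.788 by limma over every probe set). The gene that rose, Heyl, was below background in both groups, as were Hes2, Hes3, Hes7 and Hey2.

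**Figure D4:**
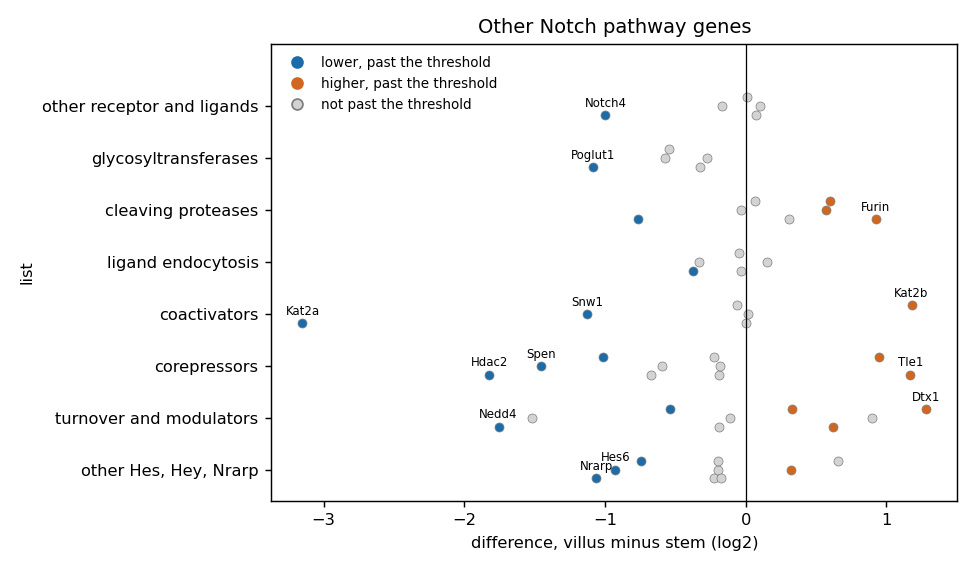
Difference between villus and stem arrays (horizontal axis, log2) of the 56 measured further genes of the pathway in 8 lists (vertical axis), 1 point per gene, coloured by limma's call. Kat2a stands lowest at -3.15 and Dtx1 highest at 1.28, and every list except the receptor and ligand, glycosyltransferase and ligand endocytosis lists holds calls in both directions.

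By shape over the 4 arrays, the genes nearest to Notch1 among 7582 others above background were Ccdc86, Chek2 and Txnrd3, at distances of 0.036 to 0.057 (log2 profiles, each centred on its own mean). Those nearest to Hes1 were Noa1, Arhgap8 and Tmed9 (0.044 to 0.057), and those nearest to Numb were Mtarc2, Lypla1 and Slc39a14 (0.058 to 0.071). With 4 arrays in 2 groups, such a distance says little more than that the differences are of like size.

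The promoters are shown for members that fell together, Notch1, Dll1 and Rbpj, and for Numb, which rose. They are RefSeq windows of assembly GRCm38.p6, 250 bases before to 50 after the start, written 5′ to 3′ on the gene's strand, and for genes with several starts the most upstream is shown. For 9 of the 10 genes an entry matched (all but Hes1). Searched on both strands were TGGGAA, the core of the Rbpj site, its longer form GTGGGAA, which contains that core, CACNAG, the N-box that Hes factors bind, and CAGCTG, an E-box. Capitals mark every match to the core, the N-box or the E-box on either strand. Notch1 is at chr2:26503773-26504072 (minus strand), Dll1 at chr17:15376883-15377182 (minus strand), Rbpj at chr5:53590096-53590395 (plus strand) and Numb at chr12:83921885-83922184 (minus strand).
Notch1: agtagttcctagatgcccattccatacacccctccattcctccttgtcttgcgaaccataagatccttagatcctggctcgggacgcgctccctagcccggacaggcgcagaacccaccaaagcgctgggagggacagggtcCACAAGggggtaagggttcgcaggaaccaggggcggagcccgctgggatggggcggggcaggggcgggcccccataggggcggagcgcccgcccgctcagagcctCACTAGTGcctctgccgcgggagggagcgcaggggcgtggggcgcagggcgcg
Dll1: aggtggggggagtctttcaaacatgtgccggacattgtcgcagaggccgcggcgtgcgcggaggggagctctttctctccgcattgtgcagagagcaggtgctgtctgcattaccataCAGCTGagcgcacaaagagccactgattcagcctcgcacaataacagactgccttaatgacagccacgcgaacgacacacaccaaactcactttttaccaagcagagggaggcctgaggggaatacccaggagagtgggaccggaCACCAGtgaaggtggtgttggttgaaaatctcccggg
Rbpj: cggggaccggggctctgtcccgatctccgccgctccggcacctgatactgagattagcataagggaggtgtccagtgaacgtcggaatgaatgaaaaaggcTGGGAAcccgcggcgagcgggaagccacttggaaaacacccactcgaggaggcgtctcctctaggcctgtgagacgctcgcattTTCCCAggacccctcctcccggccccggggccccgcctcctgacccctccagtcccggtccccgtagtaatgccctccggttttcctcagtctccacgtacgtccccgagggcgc
Numb: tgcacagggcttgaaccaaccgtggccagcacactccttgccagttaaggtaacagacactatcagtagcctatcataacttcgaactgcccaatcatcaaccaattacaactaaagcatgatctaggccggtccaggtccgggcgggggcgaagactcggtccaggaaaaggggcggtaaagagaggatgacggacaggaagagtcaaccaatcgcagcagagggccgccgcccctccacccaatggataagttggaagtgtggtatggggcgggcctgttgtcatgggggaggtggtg

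The Rbpj window held 2 matches to TGGGAA, 149 bases before the start on the gene's strand and 65 bases before it on the other. It was the only 1 of the 9 first windows with that core, which 25.6% of all 32851 windows hold. The longer form was in 0 of the 9, and in 6.38% of all windows. N-boxes were in 5 of the 9, against 42.5% of all windows; Notch1 held 3 matches, 2 of which overlap at its start. E-boxes were in 2 of the 9, Jag1 and Dll1, against 16.3%. Numb held no match to any of these letters in the window shown. The matches are letters only: no binding was measured here.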

How the data were processed

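Biotinylated cRNA from 100 ng total RNA was hybridised to 4 Affymetrix arrays, 2 per group. The deposited values are linear normalized intensities, 7.93 to 41704, with array medians of 102 to 111. RMA was used, per the submitters' processing notes; its version and the normalization between arrays were not stated. RMA yields log2 values, so the authors' intensities were probably unlogged; log2 was taken again with no pseudocount (0 columns lacked a sample). Of 22690 probe sets, 64 controls were left out, and 20380 others carried exactly 1 symbol in the platform annotation. limma 3.58.1 (R 4.3.3; lmFit, eBayes) tested the differences across all 12393 genes, two-sided, Benjamini-Hochberg adjusted, with 2 residual and 1.23 prior degrees of freedom; a second fit took every probe set. Every SE is limma's. The number of arrays limits the precision. The steps were checked on simulated data. Same-numbered replicates were not paired: the correlation of their deviations over genes was 0.050.

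Named are the 10 members and, per list, up to 3 genes with the largest difference past the threshold; Psenen, Adam10, Hes5, Lfng, Mib1, Maml1, Numbl, Heyl, Hes2, Hes3, Hes7, Hey2, Pecam1, Cdh5 and Kdr were added after their values were seen. Members and lists were chosen with earlier results of these data known. Alternatives were a replicate block, leaving out arrays, quantile normalization, reference gene centring, a dim filter, a pseudocount of 16, an intensity trend and other probe set choices; centring on reference gene differences was added after seeing the data.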

Additional observations from a re-analysis of the deposited data

How the results depend on the processing

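With 4 arrays, leaving any of them out leaves 1 residual degree of freedom. Over those fits the members called higher ranged from 0 to 0 and lower from 0 to 3, their probe sets from 0 to 0 and 0 to 0, and the further pathway genes from 0 to 3 higher and 0 to 5 lower; the lone array left in a group is assumed to vary like the others. In the same fits Notch1 differed by -2.38 to -2.05 (log2, villus minus stem). Hes1 differed by -1.47 to -1.07 and Numb by 1.59 to 1.93.

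Centred on the level of the reference genes, 8 members were lower, 1 probe set was higher and 15 were lower, and 3 further genes were higher and 45 lower. Centred on reference gene differences, chosen after seeing the data, 13 probe sets were lower, and 5 further genes were higher and 42 lower, with 1585 and 8100 genes over the table. On the dimmest probe sets 3 members and 9 further genes were lower, beside 1943 of the 12393 genes over the table. Among values past the threshold in either setting, signs turned, or left 0 for the second Jag2 set, for Jag1 (-0.54), the second sets of Notch2 (-0.54), Jag2 (-0.69 and -0.49) and Rbpj (-0.61 and -0.42) under reference gene centring, and for Notch2 (0.15) and Rbpj (0.075) on the dimmest set. The replicate block kept the counts of 1 member higher and 5 lower and, over the table, gave 2010 higher and 2557 lower; the second Notch1 set lost its call (adjusted p = 0.0641 by limma). Quantile normalization, the pseudocount, the trend, the mean over probe sets and leaving out possibly cross-hybridising sets also kept the counts of 1 and 5. Over the table these settings called 38.1% to 43.8% of genes, against 40.6% in the main fit. The dim filter gave 1 and 5 as well, but only 7 members were tested. With it 2165 of 7583 genes were higher and 2800 lower.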
